A study of Mus musculus with 4 samples.

Results

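Oxidative phosphorylation was followed here through 101 genes for subunits of the respiratory chain and ATP synthase, out of 21922 protein-coding genes and 56748 gene IDs in the count table of cultured mouse prostate fibroblasts. Members were taken by gene symbol, under a rule that uses no measured value but was set with earlier results of these data known: protein-coding genes whose symbol starts with mt-, Nduf (but not Ndufaf), Uqcr, Atp5, Cox4i, Cox5, Cox6, Cox7 or Cox8, plus Cycs, Cyc1 and Sdha to Sdhd. Of these, 13 lie on the mitochondrial genome and 88 on nuclear chromosomes. By complex they comprise 43 genes of complex I, 4 of complex II, 10 of complex III, 22 of complex IV and 20 of complex V, with the electron carrier gene Cycs and Ndufa4l2, a paralog of Ndufa4, in none of them. A mean of at least 1 CPM (CPM, counts scaled to library size with TMM factors) over the 4 libraries was reached by 89 members, 8 mitochondrial and 81 nuclear, and ratios are summarised over these.

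The respiratory chain passes electrons from NADH (complex I) or succinate (complex II) through complex III and cytochrome c to oxygen at complex IV, and complex V makes ATP from the proton gradient that results. Complexes I, III, IV and V are built from subunits of both genomes, and complex II from nuclear genes only. The mitochondrial mRNAs are cut from long transcripts read from each strand of the circular genome, so their levels are not independent of each other, while each nuclear subunit gene has its own promoter.

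The 4 bulk RNA-seq libraries, 1 per condition, carry the labels PBS (phosphate-buffered saline) or BuOE, each with and without radiation. All came from prostates of male C57BL/6 mice (CB57BL/6 in the genotype label) aged 8 to 10 weeks, dissociated with collagenase and grown in serum medium. Irradiated mice had received 37.5 Gy to the pelvis, with lead shielding elsewhere, in 7.5 Gy fractions within 5 days, at 1.2 Gy per minute. BuOE appears in the chemical name of the manganese porphyrin of the series title, and the labels give neither its dose nor its timing, nor whether mice or cultures received it. Nor do they say how many mice contributed to a library, and radiation and culture cannot be told apart from any other difference between the 4 preparations. With 1 library per condition there is no replicate: each ratio compares 2 libraries, its range is a 95% interval that covers counting error only, and no difference between 2 libraries has a test.

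The libraries held 24996835 to 35915448 counts, so that 3 counts, taken as the floor, equal 0.0842 to 0.123 CPM. Transcripts of more than 1 cell type were present: all 8 fibroblast markers and all 7 epithelial markers were detected in every library, at summed levels of 6598 to 10900 and 3148 to 4564 CPM. Summed neuronal markers (7 of 7 detected) ranged from 25.1 CPM in the PBS library to 422.8 in the BuOE library, and summed adipocyte markers from 169.7 CPM in the BuOE library, where Adipoq had no count, to 562.0 in the PBS library. The irradiated BuOE library stood apart in Malat1, a nuclear long non-coding RNA, at 9650 CPM against 3900 to 4570 in the other libraries. In bulk RNA, a different share of cells of a type and a different amount of RNA per cell cannot be told apart.

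The mitochondrial mRNAs differed in level by orders of magnitude, and the 5 genes copied almost whole in the nucleus were among the 6 lowest, with mt-Atp8. Per length (TPM, computed here from the counts and gene model lengths), mt-Co1, the catalytic core of complex IV, was highest with 4925 in PBS and 24660 in irradiated BuOE. mt-Cytb, the cytochrome b of complex III, and mt-Nd1 of complex I followed in PBS with 1987 and 1994, too close to order, and mt-Nd6, the 1 subunit mRNA read from the light strand (chrM:13552-14070, minus strand, GRCm38), had 340.2. By contrast mt-Co2, which carries the CuA site of complex IV, had only 7.81 in PBS and 37.6 in irradiated BuOE. mt-Co3, mt-Atp6, mt-Nd3, mt-Nd4l and mt-Atp8 did not reach a mean of 1 CPM; mt-Atp8 had no count in 3 libraries and 5 in the irradiated BuOE library, while mt-Co3 had 8, 23, 38 and 37 counts in PBS, BuOE, irradiated PBS and irradiated BuOE.

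A search of the 13 genes against annotated transcripts of other chromosomes (GENCODE M21, GRCm38) found copies of at least 99% identity over at least 100 bases for 7 of them. They covered nearly the whole of mt-Co2, mt-Atp6, mt-Co3, mt-Nd3 and mt-Nd4l (up to 99.9%, for mt-Co3), all 5 of which lay below 8 CPM in every library, but 63.6% of mt-Nd4 and 31.3% of mt-Co1. No such copy was found for mt-Nd1, mt-Nd2, mt-Nd5, mt-Nd6 and mt-Cytb, all of which exceeded 45 CPM in every library, nor for mt-Atp8, whose level was at or near 0. Unannotated copies, also of mt-Atp8, could not be seen by this search. The sequences below set a gene with an identical copy beside one with a diverged copy. The first 120 bases of mt-Co3 (chrM:8607-9390, plus strand) equal those of the unprocessed pseudogene Gm28437 on chromosome 1, and the whole match of 783 bases has 0 mismatches. Bases 2 to 121 of mt-Cytb (chrM:14145-15288, plus strand) differ from the processed pseudogene Gm11410 on chromosome 4 at 7 positions, shown in capitals, and the whole match of 1142 bases is 92.9% identical.
mt-Co3: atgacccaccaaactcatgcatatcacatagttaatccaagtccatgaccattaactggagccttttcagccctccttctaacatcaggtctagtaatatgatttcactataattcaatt
Gm28437: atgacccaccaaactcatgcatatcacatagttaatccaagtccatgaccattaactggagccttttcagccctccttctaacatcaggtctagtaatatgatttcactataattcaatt
mt-Cytb: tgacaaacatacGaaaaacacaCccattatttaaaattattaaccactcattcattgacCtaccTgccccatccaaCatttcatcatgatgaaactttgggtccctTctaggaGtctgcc
Gm11410: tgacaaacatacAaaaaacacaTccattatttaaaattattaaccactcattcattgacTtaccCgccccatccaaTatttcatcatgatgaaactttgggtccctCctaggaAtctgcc

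The nuclear copies themselves also had few counts. Gm28661, the copy of mt-Co2, had 48, 82, 110 and 158 counts in PBS, BuOE, irradiated PBS and irradiated BuOE, beside 40, 77, 103 and 175 for mt-Co2 itself. Gm28437 had 18, 17, 27 and 43, and Gm11410 had none in any library. The handling of reads with several matches was not given in the sources used here, which leaves the levels of the 5 nearly fully copied genes uncertain. The same holds for the copied parts of mt-Nd4 (63.6%) and mt-Co1 (31.3%). Sums and mitochondrial to nuclear ratios below include all these genes and share this limit. The part of the copies in those levels was not tested. The directions below rest on 8 genes, among them mt-Co2, mt-Nd4 and mt-Co1.

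**Figure D1:**
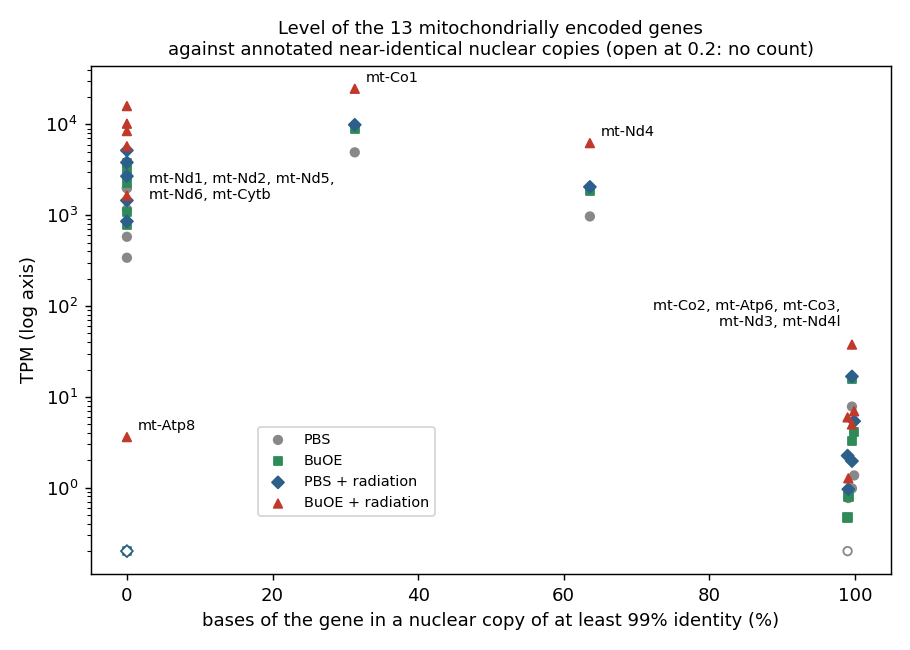
Level per length (y, TPM computed from counts and gene model lengths, log axis) of each of the 13 mitochondrially encoded genes in the 4 libraries (symbols), against the percentage of the gene's bases in an annotated nuclear copy of at least 99% identity (x). Open symbols at 0.2 mark genes with no count; the 5 genes covered nearly in full lie lowest together with mt-Atp8, which has no such copy among the annotated transcripts.

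All 8 mitochondrially encoded members kept were lowest in the PBS library, higher in the BuOE library, higher again in the irradiated PBS library and highest in the irradiated BuOE library. For mt-Co2, BuOE (77 counts, 2.54 CPM) and irradiated PBS (103 counts, 2.89 CPM) were too close to order. The 13 mitochondrial mRNAs together stood at 4086, 6898, 8712 and 27130 CPM in PBS, BuOE, irradiated PBS and irradiated BuOE. The 88 nuclear members stood at 6317, 5582, 5891 and 5908 CPM. Within a library, which needs no scaling between libraries, mitochondrial counts were 0.647 times the nuclear counts in PBS, 1.24 times in BuOE, 1.48 times in irradiated PBS and 4.59 times in irradiated BuOE. The ratio was thus 2.29-fold higher (2.27 to 2.31) in irradiated PBS than in PBS and 1.91-fold higher (1.89 to 1.93) in BuOE than in PBS. After radiation it was 3.11-fold higher (3.08 to 3.13) with BuOE than with PBS, and within the BuOE arm 3.72-fold higher (3.68 to 3.75) with radiation than without. These 4 comparisons share libraries in pairs and are not independent of each other. The first and second of these ratios do not involve the irradiated BuOE library, which also stood apart in Malat1. Both share the PBS library, where summed adipocyte markers were 562.0 CPM against 169.7 to 205.2 in the other libraries. The part of what set either library apart was not tested.

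The shift was seen in each complex that has kept members of both genomes. For complex I the mitochondrial to nuclear count ratio was 1.04, 1.94, 2.42 and 8.12 in PBS, BuOE, irradiated PBS and irradiated BuOE, and for complex III, where mt-Cytb is the sole mitochondrial subunit, it was 0.889, 1.66, 2.37 and 7.58. In complex IV, carried almost wholly by mt-Co1, the ratio was 1.91, 3.36, 3.87 and 9.23. Complex V could not be compared, since mt-Atp6 and mt-Atp8 together had 5, 16, 12 and 28 counts against 53792 to 85093 for its nuclear subunits. The nuclear sums hardly differed: those of complex I ranged from 1353 to 1502 CPM, of complex III from 609.0 to 672.6, and of complex IV from 971.3 to 1158.

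**Figure D2:**
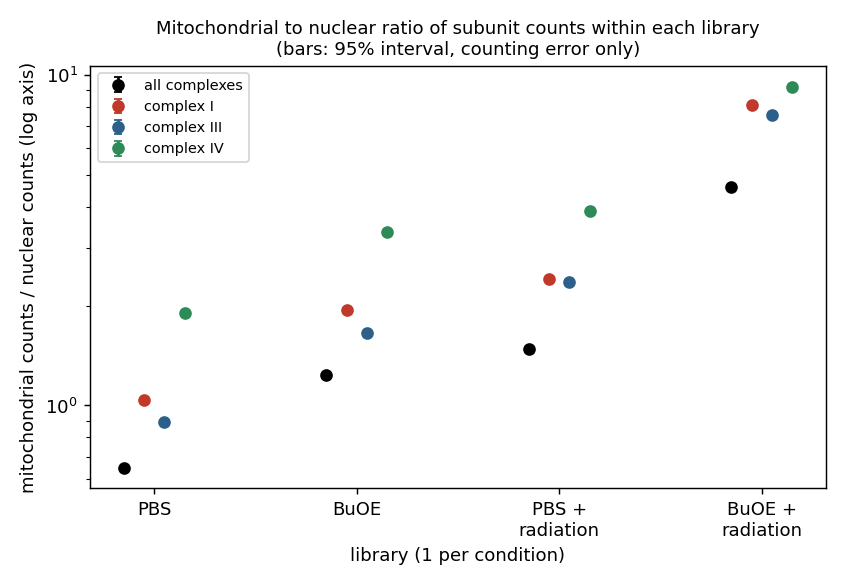
Counts of mitochondrially encoded members divided by counts of nuclear-encoded members (y, log axis) within each library (x, 1 library per condition), for all complexes and for complexes I, III and IV; bars are 95% intervals of counting error and are smaller than most points. Over all complexes the ratio stood at 0.647 in PBS and 4.59 in irradiated BuOE.

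Irradiated PBS over PBS asks what radiation of the mice left in the cultures without the compound. The median log2 ratio of scaled CPM over the 8 mitochondrial members was 1.13, with a range of 0.92 to 1.36, against 0.00 over all genes kept. Of the 8, 6 were at least 2-fold higher and none lower, where 5.62% of the 14365 genes kept were 2-fold higher and 1.02% lower. mt-Cytb led with 579.7 CPM in PBS and 1491 in irradiated PBS, a log2 ratio of 1.36 (1.34 to 1.39). mt-Nd1 was lowest among the 8, with 486.6 and 920.1 CPM (0.92, 0.89 to 0.95), and mt-Co1 lay just under 2-fold at 1940 and 3855 CPM (0.99, 0.98 to 1.01).

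Irradiated BuOE over BuOE asks the same within the BuOE arm, and the ratios there were larger for 7 of the 8, while mt-Nd6 had 1.31 in both. Their median was 2.00 (range 1.31 to 2.65) and 8 of 8 were at least 2-fold higher, where 2.27% of all genes kept were 2-fold higher and 4.94% lower. mt-Nd2, a membrane subunit of the proton pump of complex I, had 266.5 CPM in BuOE and 1670 in irradiated BuOE, the highest ratio of the 8 (2.65, 2.61 to 2.68). mt-Nd5 had 982.7 and 4314 CPM (2.13, 2.12 to 2.15), and mt-Nd4 597.9 and 2400 CPM (2.01, 1.98 to 2.03). The light strand gene mt-Nd6 had the lowest ratio, with 96.4 and 238.2 CPM (1.31, 1.24 to 1.37). The difference between the arms has no test, since each arm holds 1 irradiated and 1 unirradiated library.

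BuOE over PBS without radiation gave the smallest mitochondrial ratios, with a median of 0.81 (range 0.50 to 1.10). All 8 ratios lay above 0, but only mt-Nd6 was at least 2-fold higher, at 45.0 CPM in PBS and 96.4 in BuOE (1.10, 1.00 to 1.19); 8.72% of all genes kept were 2-fold higher and 4.23% lower. mt-Nd1 was again lowest, with 486.6 and 685.6 CPM (0.50, 0.46 to 0.53). In irradiated BuOE over irradiated PBS, which asks how the cultures differed by compound after radiation, the median was 1.66 (range 1.09 to 2.13). Here 8 of 8 were at least 2-fold higher, where 3.81% of all genes kept were 2-fold higher and 5.92% lower. mt-Nd2 was highest again, at 380.5 CPM in irradiated PBS and 1670 in irradiated BuOE (2.13, 2.11 to 2.16), and mt-Nd6 lowest, at 112.0 and 238.2 CPM (1.09, 1.03 to 1.15).

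**Figure D3:**
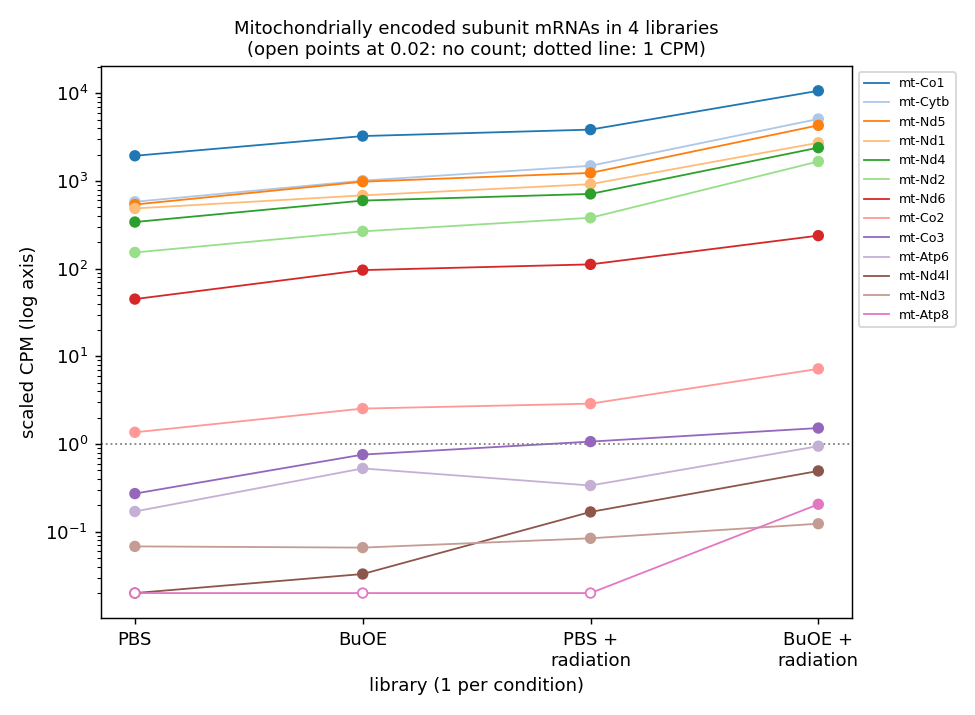
Scaled CPM (y, log axis) of the 13 mitochondrially encoded subunit mRNAs (lines, joined for reading only) in the 4 libraries (x, 1 per condition); the dotted line marks 1 CPM and open points at 0.02 mark genes with no count. The 8 genes above the dotted line in every library are lowest in PBS and highest in irradiated BuOE.

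The makeup of the mitochondrial mRNA counts also differed between libraries. mt-Co1 took 47.5% of mitochondrial mRNA counts in PBS, 47.2% in BuOE, 44.3% in irradiated PBS and 39.3% in irradiated BuOE. mt-Cytb went the other way with 14.2%, 14.6%, 17.1% and 18.8%, as did mt-Nd2 with 3.75%, 3.86%, 4.37% and 6.15%. mt-Nd6 took 1.10%, 1.397%, 1.29% and 0.878%, so its share was lowest in the library where the heavy strand mRNAs were highest. These are shares of 119985 to 659304 counts within a library and do not depend on the scaling between libraries.

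The 2 mitochondrial ribosomal RNAs, which are transcribed from the same genome but are no members, parted from the mRNAs in irradiated BuOE. mt-Rnr1 stood at 45.7, 87.2, 85.3 and 29.4 CPM and mt-Rnr2 at 51.8, 113.8, 100.7 and 42.6 CPM in PBS, BuOE, irradiated PBS and irradiated BuOE. Both were thus higher in BuOE and irradiated PBS than in PBS, like the mRNAs, but lowest in the library where the mRNAs were highest. Their log2 ratios of irradiated BuOE over irradiated PBS were -1.53 and -1.24, against 1.09 to 2.13 for the 8 mRNAs. The sources used here do not give how ribosomal RNA was depleted or polyadenylated RNA selected.

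Nuclear-encoded members showed small differences by comparison. For 75 of the 81 kept, the highest of the 4 libraries was less than 1.5 times the lowest, and the median of this spread was 1.22-fold. This spread was not computed for all genes kept, so it does not show whether the nuclear members differ from other genes. The median log2 ratio was -0.08 in irradiated PBS over PBS, with 27 of 81 above 0, where 50.4% of all genes kept lay above 0. In irradiated BuOE over BuOE it was 0.10, with 52 of 81 above 0 against 46.2% of all genes. For BuOE over PBS it was -0.15, with 15 of 81 above 0 against 48.8%, and for irradiated BuOE over irradiated PBS 0.01, with 42 of 81 against 43.8%. These medians are small enough for the scaling to set their sign: with library size alone they were -0.01 in irradiated BuOE over BuOE and -0.02 in irradiated BuOE over irradiated PBS. No nuclear member kept was 2-fold lower in any of the 4 comparisons, and 3 were at least 2-fold higher in at least 1 of them. These were Cox4i2 in all 4, Ndufa4l2 in irradiated PBS over PBS and in BuOE over PBS, and Ndufa6 in irradiated BuOE over irradiated PBS. Of all genes kept, 12.8% were 2-fold higher and 10.9% 2-fold lower in at least 1 comparison. The next highest ratio was that of Cox7a2l, at 0.95 in irradiated BuOE over irradiated PBS.

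**Figure D4:**
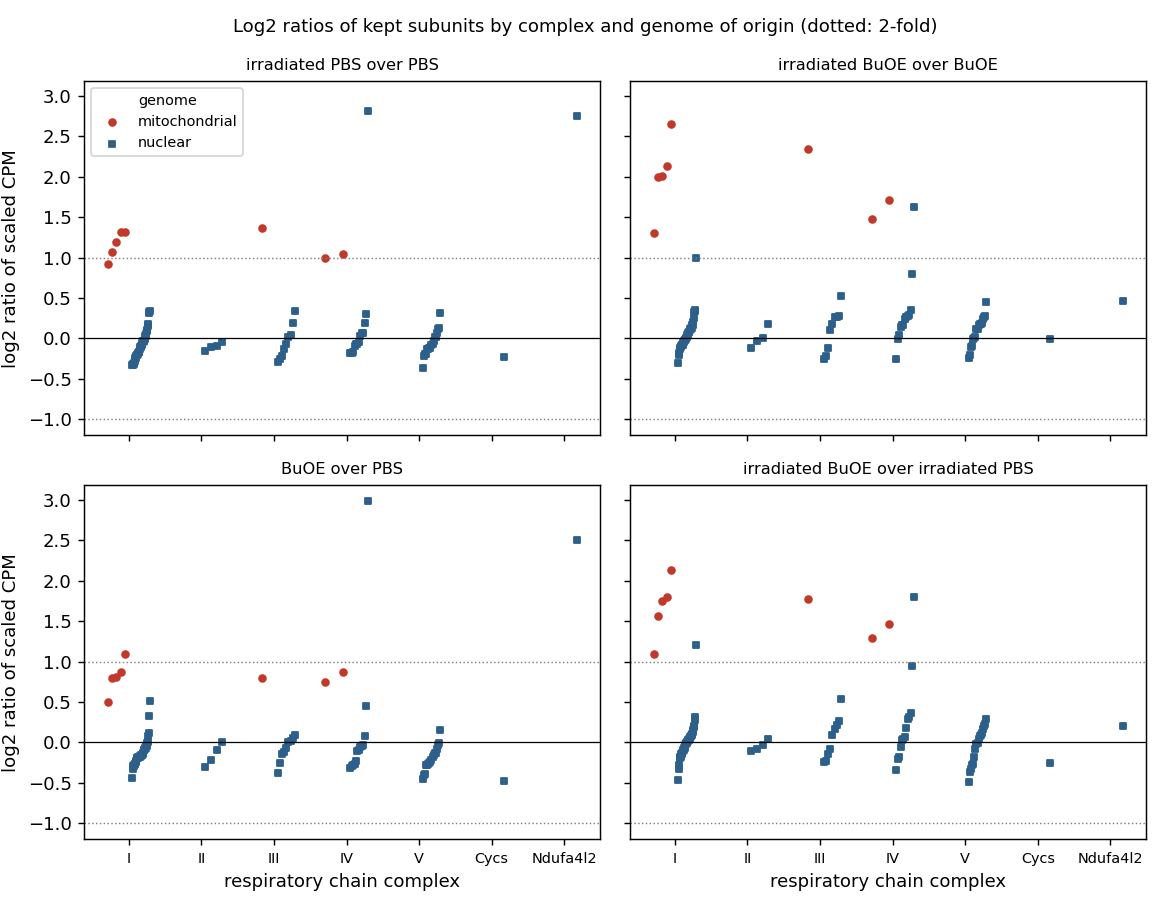
Log2 ratio of scaled CPM (y) of the 89 members kept, by respiratory chain complex (x) and genome of origin (red circles mitochondrial, blue squares nuclear), in the 4 comparisons (panels); dotted lines mark 2-fold. All mitochondrial ratios lie above 0 in each panel, while most nuclear ratios lie within 0.5 of 0 and Cox4i2 and Ndufa4l2 stand out.

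Among the 36 nuclear subunits of complex I the median ratio was -0.11, 0.03, -0.16 and 0.00 in irradiated PBS over PBS, irradiated BuOE over BuOE, BuOE over PBS and irradiated BuOE over irradiated PBS. Ndufa6, an accessory subunit, departed from the rest with 25.2, 36.02, 31.3 and 71.9 CPM in PBS, BuOE, irradiated PBS and irradiated BuOE. Its level in irradiated BuOE lay above that of every other library, with log2 ratios of 1.00 (0.89 to 1.11, just under 2-fold before rounding) over BuOE and 1.20 (1.09 to 1.31) over irradiated PBS. Of the electron path genes, Ndufs1, which holds iron-sulfur clusters, had 95.4, 76.2, 93.1 and 67.5 CPM, and was the lowest nuclear ratio of complex I in irradiated BuOE over irradiated PBS (-0.47, -0.55 to -0.38). The flavoprotein subunits Ndufv1 and Ndufv2 spanned 70.2 to 81.1 and 50.3 to 61.6 CPM. In irradiated PBS over PBS the extremes were Ndufv3 (0.34, 0.22 to 0.46) and Ndufa13 (-0.33, -0.43 to -0.23), in irradiated BuOE over BuOE the lowest was Ndufb2 (-0.30, -0.57 to -0.05), and in BuOE over PBS it was Ndufs5 (-0.44, -0.62 to -0.27).

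Complex II, which has no mitochondrial subunit, summed to 422.5, 376.6, 392.9 and 376.8 CPM and so was highest in PBS. The flavoprotein gene Sdha had 206.3, 177.6, 190.9 and 178.0 CPM, and the iron-sulfur gene Sdhb 64.6, 64.9, 58.0 and 59.7 CPM. The membrane anchors Sdhc and Sdhd spanned 83.2 to 90.7 and 49.4 to 60.8 CPM. No ratio of the 4 genes in the 4 comparisons was larger in size than that of Sdhd in BuOE over PBS (-0.30, -0.40 to -0.20).

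Complex III held nuclear subunits with opposite orders. Uqcrc1, a core protein gene, had 146.1, 122.7, 119.8 and 102.4 CPM in PBS, BuOE, irradiated PBS and irradiated BuOE, while its partner core protein gene Uqcrc2 had 96.8, 102.8, 110.8 and 124.5 CPM. Uqcrh, the hinge protein gene, lay between 94.0 and 97.6 CPM in the first 3 libraries and at 140.4 in irradiated BuOE (0.53, 0.46 to 0.60 over irradiated PBS). Cyc1, which encodes cytochrome c1, had 78.4, 60.5, 66.0 and 55.8 CPM, and Cycs, which encodes the mobile carrier cytochrome c, had 70.4, 50.5, 59.99 and 50.3 CPM; both were highest in PBS. Uqcrfs1, the Rieske iron-sulfur protein gene, spanned 64.0 to 77.0 CPM. Uqcrb was the highest ratio of complex III in irradiated PBS over PBS (0.34, 0.24 to 0.44).

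Complex IV contained Cox4i2, the nuclear member with the highest ratio in each of the 4 comparisons. Cox4i2, the lung-enriched and oxygen-responsive isoform of subunit 4, had 12, 112, 117 and 281 counts, or 0.409, 3.69, 3.28 and 11.6 CPM in PBS, BuOE, irradiated PBS and irradiated BuOE. PBS was thus lowest and irradiated BuOE highest, with BuOE and irradiated PBS close together between them. Its log2 ratios were 2.82 (2.15 to 4.0) for irradiated PBS over PBS, 1.63 (1.33 to 1.98) for irradiated BuOE over BuOE, 2.98 (2.32 to 4.17) for BuOE over PBS and 1.80 (1.5 to 2.14) for irradiated BuOE over irradiated PBS. Cox4i1, the common isoform, had 201.1, 194.6, 179.6 and 230.6 CPM. Per length, Cox4i2 made up 0.398%, 3.60%, 3.47% and 8.98% of the pair, so Cox4i1 remained the main transcript of subunit 4 in all 4 libraries.

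Ndufa4, now counted among complex IV subunits, and its paralog Ndufa4l2, a known target of hypoxia-inducible factor, behaved differently from each other. Ndufa4 spanned 49.4 to 60.4 CPM. Ndufa4l2 had 5.11, 29.2, 34.9 and 40.3 CPM, so that PBS was low and the other 3 libraries lay near each other. Its ratio was 2.76 (2.53 to 3.03) for irradiated PBS over PBS and 2.50 (2.26 to 2.77) for BuOE over PBS, but 0.21 (0.08 to 0.33) for irradiated BuOE over irradiated PBS. Per length it made up 9.64% of the pair in PBS and 42.7%, 43.3% and 50.02% in BuOE, irradiated PBS and irradiated BuOE.

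Transcripts of the subunit 7a set came mainly from Cox7a2 and its paralog Cox7a2l. Cox7a2 spanned 59.6 to 72.7 CPM, while Cox7a2l had 72.5, 99.02, 89.2 and 172.4 CPM. Per length, Cox7a2l made up 39.7%, 51.2%, 44.2% and 59.96% of the 7a transcripts in PBS, BuOE, irradiated PBS and irradiated BuOE. The other isoform sets were taken almost wholly by 1 gene. Cox6a1, Cox6b1, Cox7b and Cox8a each made up nearly all of their sets per length, the lowest share being that of Cox6b1 in irradiated BuOE at 99.45%. The muscle isoform genes Cox6a2, Cox7a1 and Cox8b had at most 3, 16 and 2 counts, and the 6 skeletal muscle markers summed to 7.22 to 21.6 CPM. Cox5a spanned 51.7 to 65.3 CPM, and Cox5b was lowest in irradiated BuOE with 73.4, 61.1, 64.7 and 51.0 CPM.

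**Figure D5:**
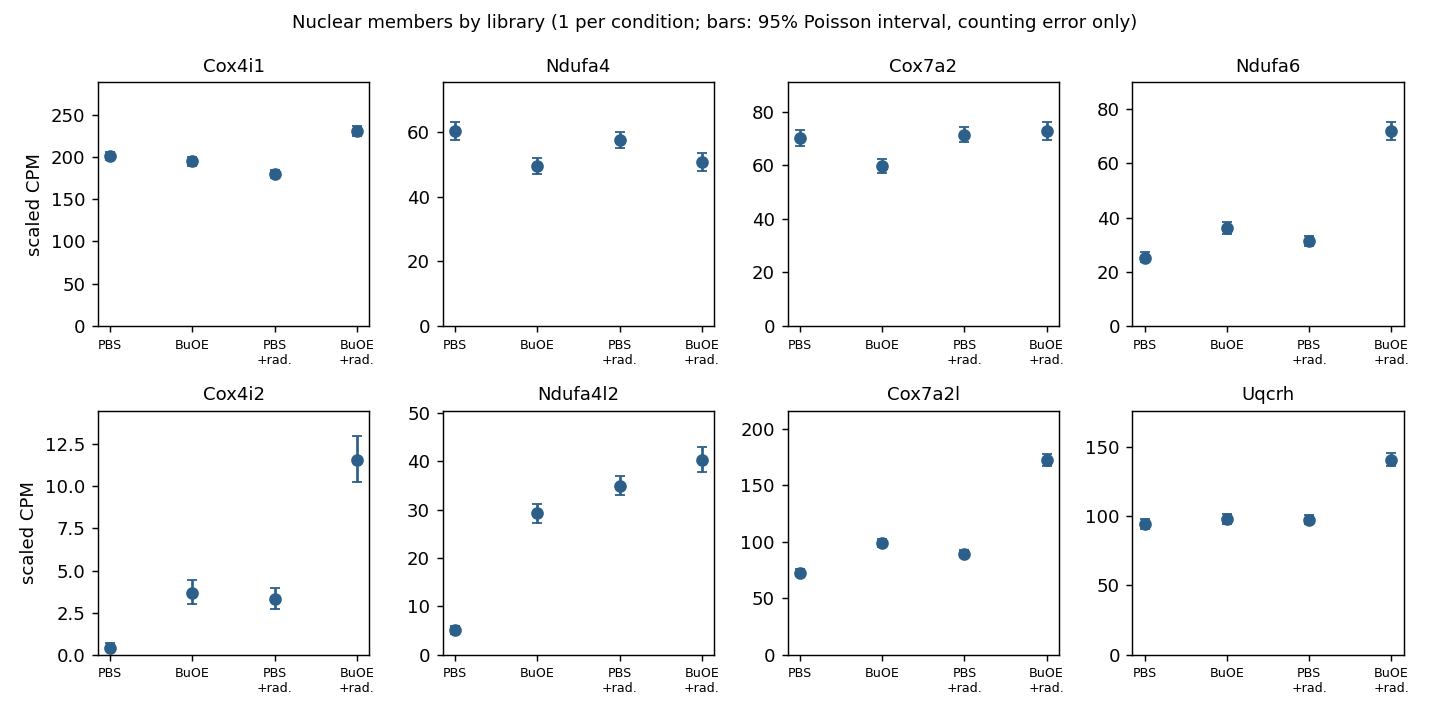
Scaled CPM (y) of 8 nuclear-encoded members in the 4 libraries (x, 1 per condition); bars are 95% Poisson intervals, which cover counting error only. Cox4i2, Ndufa4l2, Ndufa6 and Cox7a2l are lowest in PBS and highest in irradiated BuOE, while Ndufa4 and Cox7a2 do not share this order.

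Complex V gave the nuclear members with the highest levels per length and a lower sum outside PBS. Its nuclear subunits summed to 2647, 2193, 2389 and 2214 CPM. Atp5b, the catalytic beta subunit gene, ranked first among the 88 nuclear members per length and had 1016, 777.4, 873.7 and 728.0 CPM, a ratio of -0.39 for BuOE over PBS. Atp5a1, the alpha subunit gene, ranked second with 631.6, 543.0, 553.1 and 544.2 CPM. Of the 3 genes for the same subunit c, Atp5g1 had 44.2, 32.3, 34.3 and 27.4 CPM, Atp5g2 36.1, 30.1, 31.7 and 36.5, and Atp5g3 109.1, 82.9, 107.0 and 82.7. Atp5g3 made up 58.1% to 65.5% of the subunit c transcripts per length. Atp5k, a small membrane subunit gene, had the lowest nuclear ratio of irradiated BuOE over irradiated PBS (-0.49, -0.65 to -0.34). Atp5s, named like a subunit but not part of the structure, was low in all libraries at 2.38 to 3.66 CPM.

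Ordered over the 4 libraries, 9 of the 81 nuclear members were lowest in PBS and highest in irradiated BuOE, like all 8 mitochondrial members, where 16.3% of all genes kept had this order: Atp5s, Cox4i2, Cox6a1, Cox7a2l, Ndufa4l2, Ndufa6, Uqcr10, Uqcrc2 and Uqcrh. The opposite order, highest in PBS and lowest in irradiated BuOE, was found for 18 of 81, where 20.1% of all genes kept had it. They include Atp5b, Cyc1, Cycs, Ndufs1, Uqcrc1 and Sdhc. Both counts lie near or below the shares of all genes and are no result about the nuclear members.

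Nuclear subunit promoters are known to be bound by NRF1, by ETS factors of the GABP type and by ERR receptors. In RefSeq (GRCm38.p6), 70 of the 88 nuclear members have a promoter window from 250 bases before to 50 bases after the start, 2 of them by an older symbol. The NRF1 core GCGCATGC, searched on both strands, was present in 11 of the 70 (15.7%), against 3.05% of 27025 genes. The ETS motif CCGGAAG was present in 22.9% against 9.93%, the ERR motif TGACCTTG in 5.71% against 1.76%, and the hypoxia response core ACGTG in 27.1% against 21.8%. Cycs (chr6:50566520-50566819, minus strand) and Ndufa6 (chr15:82354242-82354541, minus strand) are shown because each holds 1 NRF1 core, read here on the reverse strand, and they were picked for levels that differ: Ndufa6 was highest in irradiated BuOE and Cycs highest in PBS. Capitals mark the NRF1 core and, in Cycs, also 2 hypoxia response cores on the reverse strand.
Cycs: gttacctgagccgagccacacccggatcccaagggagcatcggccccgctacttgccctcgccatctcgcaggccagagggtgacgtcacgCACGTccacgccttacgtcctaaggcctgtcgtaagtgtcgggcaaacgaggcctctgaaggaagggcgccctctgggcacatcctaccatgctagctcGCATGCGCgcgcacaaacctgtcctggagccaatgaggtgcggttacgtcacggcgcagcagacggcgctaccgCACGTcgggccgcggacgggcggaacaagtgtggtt
Ndufa6: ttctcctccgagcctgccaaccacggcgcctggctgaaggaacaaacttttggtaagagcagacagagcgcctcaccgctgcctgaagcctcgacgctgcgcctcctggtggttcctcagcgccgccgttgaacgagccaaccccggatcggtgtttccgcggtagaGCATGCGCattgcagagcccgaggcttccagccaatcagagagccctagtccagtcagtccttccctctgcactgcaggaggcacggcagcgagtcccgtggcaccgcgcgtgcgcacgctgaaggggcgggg

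A match is a description of the letters in the window and no evidence of binding. The window of Cox7a2l held none of the 4 motifs, and Uqcrh held the ETS motif only.

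A model with radiation and BuOE as additive terms used all 4 libraries and left 1 residual degree of freedom. By edgeR's quasi-likelihood test with Benjamini-Hochberg adjustment over 14365 genes, 0 members passed an adjusted p of 0.05 for either term, as did 0.0% of all genes. Unadjusted p-values under 0.05 were found for 11 of 89 members for radiation, where 7.49% of all genes had one, and for 15 of 89 for BuOE, where 20.6% had one; all 8 mitochondrial members were among them in both terms. For radiation, mt-Nd6 had a log2 estimate of 1.31 (SE 0.12, edgeR adjusted p = 0.663) and mt-Cytb 1.85 (SE 0.37, edgeR adjusted p = 0.663). For BuOE, mt-Nd6 had 1.09 (SE 0.12, edgeR adjusted p = 0.0908) and Cox4i2 2.43 (SE 0.47, edgeR adjusted p = 0.131). DESeq2 called 8 members for radiation (7 mitochondrial and Cox4i2), where it called 0.557% of all genes higher and 0.223% lower. For BuOE it called 10 (7 mitochondrial, Cox4i2, Ndufa6 and Cox7a2l), where it called 3.04% of all genes higher and 2.99% lower. limma-voom called none for either term. It gave an unadjusted p under 0.05 for 11 of 89 members for radiation, where 1057 of 14365 genes had one. For BuOE it did so for 14 of 89 members, where 2952 of 14365 genes had one. edgeR without the filter on low counts called 1 member, mt-Nd6 for BuOE, where it called 0.28% of 31783 genes higher and 0.61% lower. Of the calls of DESeq2, that of mt-Nd6 for BuOE was thus shared with edgeR only without the filter, and the others were made by DESeq2 alone. The model assumes that the terms add, while the mitochondrial ratios for radiation were larger in the BuOE arm for 7 of 8 genes.

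Other nuclear gene groups of the mitochondrion had medians between -0.35 and 0.15 in the 4 comparisons. Of 77 mitochondrial ribosomal protein genes kept, 15 had a ratio above 0 in irradiated PBS over PBS (median -0.17), where 50.4% of all genes did, and 39 in irradiated BuOE over BuOE (median 0.01), where 46.2% did. In BuOE over PBS 5 lay above 0 (median -0.30), against 48.8% of all genes, and in irradiated BuOE over irradiated PBS 21 (median -0.14), against 43.8%. Among 35 genes of mitochondrial DNA and RNA machinery the medians were -0.04, -0.06, -0.27 and -0.30 in irradiated PBS over PBS, irradiated BuOE over BuOE, BuOE over PBS and irradiated BuOE over irradiated PBS. In irradiated BuOE over irradiated PBS, 9 of the 35 lay above 0 and 26 below, where 43.8% of all genes kept lay above 0. The mitochondrial RNA polymerase gene Polrmt had 27.2, 21.7, 21.9 and 16.7 CPM. Lrpprc, whose product stabilises mitochondrial mRNAs, had 88.0, 65.8, 76.3 and 47.6 CPM, so both were lowest in irradiated BuOE. Other genes of the list were highest there, such as Grsf1 with 67.5, 79.8, 84.3 and 103.9 CPM and Mtpap with 19.2, 19.5, 24.2 and 31.5 CPM. Tfam, which packages mitochondrial DNA, spanned 23.7 to 31.0 CPM. Polg2, the accessory subunit of the mitochondrial DNA polymerase, was the 1 gene of this list at least 2-fold higher. It had 2.71 CPM in BuOE, 2.98 in irradiated PBS and 6.09 in irradiated BuOE. Irradiated BuOE was thus past 2-fold over both, where 2.27% of all genes kept were higher over BuOE and 3.81% over irradiated PBS. A count of 1 of 35 lies near these shares and is no result about the list.

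Assembly factors (49 kept) had medians of -0.06, -0.06, -0.16 and -0.13 in the same order of comparisons, tricarboxylic acid cycle genes (14 kept) -0.10, -0.05, -0.25 and -0.19, and genes of mitochondrial membranes and chaperones (26 kept) -0.18, -0.02, -0.35 and -0.22. In BuOE over PBS 0 of the 14 genes of the tricarboxylic acid cycle had a ratio above 0, against 48.8% of all genes kept. Citrate synthase (Cs) had 343.9, 261.5, 285.6 and 254.2 CPM, and the chaperonin gene Hspd1 524.3, 279.0, 452.0 and 293.5 CPM. Regulators of mitochondrial genes (12 kept) had medians of 0.01, 0.02, -0.01 and 0.15. Among them Ppargc1a, a coactivator of mitochondrial biogenesis, was low with 1.94, 4.02, 1.97 and 3.50 CPM, while Nrf1 spanned 34.9 to 42.1 and Esrra 22.5 to 25.3 CPM.

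Hypoxia response genes were as a sum lowest in PBS and highest in irradiated BuOE, like the mitochondrial mRNAs. Of the 17 genes, 14 had PBS lowest and irradiated BuOE highest, where 16.3% of all genes kept did. The full order of the mitochondrial mRNAs was found for 6 of the 17. Its share over all genes was not computed, so this count cannot be judged. The 17 genes summed to 3074, 3979, 4253 and 6138 CPM in PBS, BuOE, irradiated PBS and irradiated BuOE. Ratios lay above 0 for 16, 16, 15 and 16 of 17 in irradiated PBS over PBS, irradiated BuOE over BuOE, BuOE over PBS and irradiated BuOE over irradiated PBS, against 50.4%, 46.2%, 48.8% and 43.8% of all genes kept. Their medians were 0.74, 0.69, 0.74 and 0.82 in these comparisons. Car9, a carbonic anhydrase, had 5.28, 56.3, 32.2 and 100.9 CPM, and Bnip3, a mitophagy receptor gene, 43.5, 104.9, 120.4 and 214.9 CPM. Hif1a itself had 293.6, 295.3, 418.1 and 269.7 CPM. The part of whatever set the hypoxia response genes in the respiratory chain values was not tested.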

How the data were processed

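Deposited raw counts per gene in 4 libraries were used. The authors made them with featureCounts on GRCm39, per the submitters' processing notes. Those notes list, with no role, edgeR (4.2.2), Salmon (1.4.0), Trim Galore (0.6.4) and FastQC. Strand setting and multi-mapping rule are not given in those sources. Groups come from the treatment in the labels.

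Symbols, biotypes and gene model lengths were joined by Ensembl ID from GENCODE M21 (GRCm38); 4623 of 56748 IDs had none and held 0.682% to 1.28% of counts. Counts were scaled with TMM factors over all genes (edgeR 4.0.16, R 4.3.3), 14365 genes averaging 1 CPM or more were kept, and log2 ratios used a prior count of 2. Intervals are exact binomial and cover counting error only; reads are not independent molecules. The additive model was also fitted with DESeq2 1.42.0 and limma-voom (limma 3.58.1). Steps were tested on simulated data. Nuclear copies were sought with blastn 2.17.0 among annotated transcripts, in place of a genome.

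Named are the mitochondrial members, complex II, the cytochromes, paralog sets, core and electron path subunits, and the highest and lowest nuclear ratio of each complex and comparison (a gene that this rule names is not reported here); Polg2, Ppargc1a and other genes outside the members were picked as examples after their values were seen. Members, lists and named genes were chosen with earlier results of these data known. Alternatives were other scalings, prior counts, filters and tools.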

Additional observations from a re-analysis of the deposited data

Results flagged for a closer look

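Counting intervals of the log2 ratio lay on opposite sides of 0 in the 2 arms for 9 of 81 nuclear members for radiation, where 15.7% of all genes kept did so, and for 8 of 81 for BuOE, where 12.5% did. With 1 library per condition none of these differences was tested, and both counts lie below the share of all genes. The values of the 7 among them that the rule for named genes includes follow. For radiation, Atp5g2 of ATP synthase subunit c had -0.19 in the PBS arm and 0.28 in the BuOE arm, a difference of 0.468. Ndufs5 had -0.18 and 0.35, a difference of 0.527, Cox4i1 -0.16 and 0.24, a difference of 0.408, and Cox7b -0.09 and 0.16, a difference of 0.251. For BuOE, Atp5g2 had -0.26 without radiation and 0.20 with it, which is the same difference of 0.468 by construction. Ndufa13 had -0.13 and 0.28, a difference of 0.411, Uqcrfs1 -0.12 and 0.21, a difference of 0.330, and Cox6b1 -0.11 and 0.07, a difference of 0.177.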

How the results depend on the processing

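No paired analysis was possible because each group has 1 library, and leaving out a library was not run because it leaves no residual degrees of freedom. The main model called 0 members for either term, so no call could reverse. With library size alone the nuclear median changed sign, from 0.10 to -0.01 in irradiated BuOE over BuOE and from 0.01 to -0.02 in irradiated BuOE over irradiated PBS. Of single-gene ratios, 24 small ones, at most 0.101 in size, changed sign under an alternative. The median mitochondrial log2 ratio of irradiated BuOE over BuOE was 1.89 with library size alone, 2.12 with upper-quartile factors, 2.05 with TMM from the genes kept (chosen after seeing the data) and 1.95 as a mean. That of irradiated BuOE over irradiated PBS was 1.63 with library size alone, 1.80 with upper-quartile factors, 1.47 without a filter, 1.75 at a mean of at least 10 CPM and 1.61 as a mean. For irradiated PBS over PBS it was 1.10 with upper-quartile factors and 1.06 without a filter, and for BuOE over PBS 0.90 with library size alone. As a mean, led by Cox4i2 and Ndufa4l2, the nuclear value of irradiated PBS over PBS was 0.01. Upper-quartile factors gave a nuclear median of 0.15 for irradiated BuOE over irradiated PBS. Library size alone moved the median of all genes from -0.03 to -0.15 in irradiated BuOE over BuOE.

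Nuclear members past 2-fold in irradiated BuOE over BuOE numbered 2 with DESeq2 size factors, upper-quartile factors or TMM from the genes kept, since Ndufa6 lies at the limit. Without a filter they numbered 6 in irradiated PBS over PBS and 5 in BuOE over PBS, where 3 mitochondrial members passed. At a mean of at least 10 CPM, where fewer genes are tested and Cox4i2 is left out, they numbered 1 in irradiated PBS over PBS, 0 in irradiated BuOE over BuOE, 1 in BuOE over PBS and 1 in irradiated BuOE over irradiated PBS. The mitochondrial to nuclear difference taken from medians was 1.21 in irradiated PBS over PBS, 0.96 in BuOE over PBS and 1.65 in irradiated BuOE over irradiated PBS. DESeq2 called 8 members for radiation and 10 for BuOE, and edgeR without a filter called 1 for BuOE; apart from filters, the cause was not tested. Of single-gene ratios, 1347 stayed within the counting interval and 181 moved beyond it. Members under the floor of 3 counts could not be compared.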
